A study of Mus musculus with 8 samples.

Results

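The genes described here make cholesterol and fatty acids or control that synthesis. There are 36 of them, named by symbol, of 18193 genes that the array measures with a probe set naming exactly 1 gene. Of the 36, 35 have such a probe set and were described by the one with the highest mean over all arrays, and Acat2 was not analysed here. RNA came from pancreatic islets of male C57Bl/6 mice, 13 weeks old at the end of the experiment. Wild-type mice were compared with Irs2-/- mice, which lack the adaptor protein by which insulin and IGF-1 receptors pass signals into the cell. For 21 days they drank plain distilled water (untreated) or distilled water with sodium tungstate, an oral salt that lowers blood glucose in diabetic rodents. Its concentration is given per millilitre in the design text and per decilitre in the sample labels, so the dose is not settled here. The 4 groups (wild type untreated, wild type treated, Irs2-/- untreated, Irs2-/- treated) held 2 arrays each from samples called independent. The sources used here do not say how many mice gave the islets of 1 array, nor in which tissues Irs2 was deleted. The p-values therefore reflect only the scatter of these samples, which may be technical.

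Cells make cholesterol from acetyl-CoA through mevalonate, isoprenoids, squalene and lanosterol, and they make fatty acids from the same acetyl-CoA through malonyl-CoA. The transcription factors of the SREBP family switch on the genes of both routes: SREBP-2, encoded by Srebf2, acts mainly on sterol genes, and SREBP-1, encoded by Srebf1, mainly on fatty acid genes. Scap escorts the SREBP precursors out of the endoplasmic reticulum when sterols are low, and the Insig proteins hold Scap back when sterols are plentiful. In liver, insulin raises Srebf1 and fatty acid synthesis. In beta cells, the balance of lipid synthesis and use has been studied mostly for its bearing on insulin secretion. The members were sorted into 19 genes of the sterol branch, 12 of the fatty acid branch and 5 of SREBP control.

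SREBP commonly acts with the CCAAT-binding factor NF-Y at promoters. The 250 bases before the start site are therefore shown for the members of the sterol branch and of SREBP control with the smallest p between untreated genotypes (Msmo1, Insig1 and Idi1), for Acly of the fatty acid branch and for Hmgcs1. Scd2 of the fatty acid branch had a smaller p than Acly but no window among the sequences used. Hmgcs1 was added after its sequence was seen. The sequences are RefSeq's, of build GRCm38.p6, written 5′ to 3′ on the strand of the gene. Capitals mark CCAAT on either strand (ATTGG on the printed strand) and, in Hmgcs1 only, the sterol regulatory element TCACNCCAC as TCACCCCAC. No marked motifs overlap in these windows.
Msmo1, chr8:64733579-64733828, minus strand: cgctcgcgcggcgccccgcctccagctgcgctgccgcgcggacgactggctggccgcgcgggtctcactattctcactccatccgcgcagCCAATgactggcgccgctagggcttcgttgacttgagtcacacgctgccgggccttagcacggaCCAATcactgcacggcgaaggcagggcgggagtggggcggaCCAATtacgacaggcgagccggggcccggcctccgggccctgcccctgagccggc
Insig1, chr5:28071162-28071411, plus strand: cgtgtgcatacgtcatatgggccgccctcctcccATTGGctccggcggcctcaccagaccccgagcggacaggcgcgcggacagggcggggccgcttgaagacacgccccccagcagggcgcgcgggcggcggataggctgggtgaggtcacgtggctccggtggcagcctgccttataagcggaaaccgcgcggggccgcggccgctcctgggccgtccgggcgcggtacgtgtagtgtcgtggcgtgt
Idi1, chr13:8885356-8885605, plus strand: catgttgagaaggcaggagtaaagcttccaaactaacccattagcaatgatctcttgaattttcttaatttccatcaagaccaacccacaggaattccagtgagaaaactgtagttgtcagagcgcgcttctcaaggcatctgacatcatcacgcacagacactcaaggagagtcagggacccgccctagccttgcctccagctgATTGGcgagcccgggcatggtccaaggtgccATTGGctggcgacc
Hmgcs1, chr13:119690101-119690350, plus strand: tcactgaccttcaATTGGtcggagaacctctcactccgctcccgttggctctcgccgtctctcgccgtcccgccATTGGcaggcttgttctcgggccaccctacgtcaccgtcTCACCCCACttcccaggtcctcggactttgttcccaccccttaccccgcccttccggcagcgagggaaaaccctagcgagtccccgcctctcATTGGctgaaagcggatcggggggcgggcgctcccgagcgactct
Acly, chr11:100528001-100528250, minus strand: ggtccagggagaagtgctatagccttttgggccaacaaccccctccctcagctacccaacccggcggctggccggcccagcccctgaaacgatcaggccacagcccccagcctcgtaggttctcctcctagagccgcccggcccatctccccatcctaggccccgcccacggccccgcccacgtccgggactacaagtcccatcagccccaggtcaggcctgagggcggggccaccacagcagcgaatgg

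Of the 36 members 29 had windows in the RefSeq table. CCAAT stood on either strand in a window of 14 of 15 sterol branch genes, of 4 of 5 control genes and of 4 of 9 fatty acid branch genes, against 37.5% of 27025 genes with a window. Msmo1 held 3 copies, beginning at positions -160, -96 and -55 from the start, and Idi1 held 2. Hmgcs1 also held 3 copies, and its TCACCCCAC began at position -137. These letters, with any base at the N, were in 1 of 29 members and in 1.22% of all genes with a window. The letters describe these windows and do not show that a factor binds there.

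The deleted gene followed the labels: Irs2 read 7.61 to 7.91 on the 4 wild-type arrays and 4.54 to 4.89 on the 4 Irs2-/- arrays (log2 expression; the sources used here do not place its 1 probe set relative to the deletion). Markers of islet endocrine cells were present on all 8 arrays, and the mean of 8 beta cell markers was 12.33 to 12.40 on wild-type, 11.36 and 11.57 on untreated Irs2-/- and 11.62 and 12.13 on treated Irs2-/- arrays. Markers of other cells varied too. Endothelial markers (6 genes) averaged 7.99 to 8.15 on wild-type and 8.47 to 9.06 on Irs2-/- arrays. Fibroblast markers (6 genes) averaged 8.48 and 7.10 in untreated and 6.15 and 6.56 in treated wild-type islets. In Irs2-/- islets the fibroblast means were 8.90 and 8.53 untreated and 8.47 and 7.94 treated. Macrophage markers (10 genes) averaged 7.27 to 7.49 on wild-type arrays, 8.79 and 9.03 in untreated and 7.60 and 7.73 in treated Irs2-/- islets. Acinar markers (10 genes) ranged from 9.56 on replicate 1 of untreated wild-type islets to 12.90 on replicate 2 of untreated Irs2-/- islets. That last array also had the highest mean of 6 adipocyte markers, 7.65 against 5.58 to 6.13 on the other 7 arrays, with the adipokine gene Adipoq at 8.37 against 4.24 to 4.59. The control probe set for 18S ribosomal RNA read 11.05 and 10.63 in untreated Irs2-/- islets and 11.12 to 12.70 elsewhere. In whole islets, fewer cells of a type and less RNA per cell cannot be told apart, and the part of these shifts in the results below was not tested except where a value is given.

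Between untreated genotypes some lipid synthesis genes, Scd2, Insig1, Msmo1 and Idi1 among them, were lower in Irs2-/- islets. In limma's test across 13369 genes, with p-values adjusted by Benjamini and Hochberg and a threshold of 0.05, 11 of 35 members fell and 1 rose. Over all tested genes 8.52% fell and 8.27% rose (16.8% in either direction). The median difference of the 35 members was -0.33 (log2), against -0.01 over all tested genes. The estimate was below 0 for 27 of the 35 and for 6882 of 13369 tested genes. In 23 of 35 members both Irs2-/- arrays read below both wild-type arrays, where 31.7% of all tested genes did so. In either direction 30 of 35 did not overlap, against 60.6% of all. All 35 members passed the filter on low values. Differences are given as log2 ± SE with 2 arrays per group, where the SE pools the spread over all 4 groups and borrows from other genes. The median SE over all genes was 0.14.

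The calls between untreated genotypes changed in number when single arrays were left out or marker levels of other cells entered the model. Members passing numbered 5 or 6 when untreated wild-type replicate 1 or 2, respectively, was left out, where 6.99% or 4.91% of all tested genes passed. They numbered 5 or 9 without untreated Irs2-/- replicate 1 or 2, where 5.88% or 11.9% of all did. Calls were thus fewer over all genes too, against 16.8% with every array. Without the 2 arrays of outlying acinar and adipocyte levels there were 3 members, 2 of them higher, and 6.84% of all genes. That fit sets 1 untreated array against 1, takes its spread from the treated groups alone and has no replicate check within this comparison. Scd2 alone of the 12 passed in each of these fits and Insig1, Msmo1 and Idi1 in the 4 that left out 1 array. With the acinar marker level as a covariate 7 members and 11.3% of all genes passed, and with the macrophage level 0 did, as did 0 of 13369 genes. The macrophage level differed far more between the untreated genotypes than within them, so that fit can hardly separate it from genotype. All 10 macrophage markers rose in untreated Irs2-/- islets (median 1.49), and 5 of 8 beta cell markers fell and 1 rose (median -0.97).

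**Figure D1:**
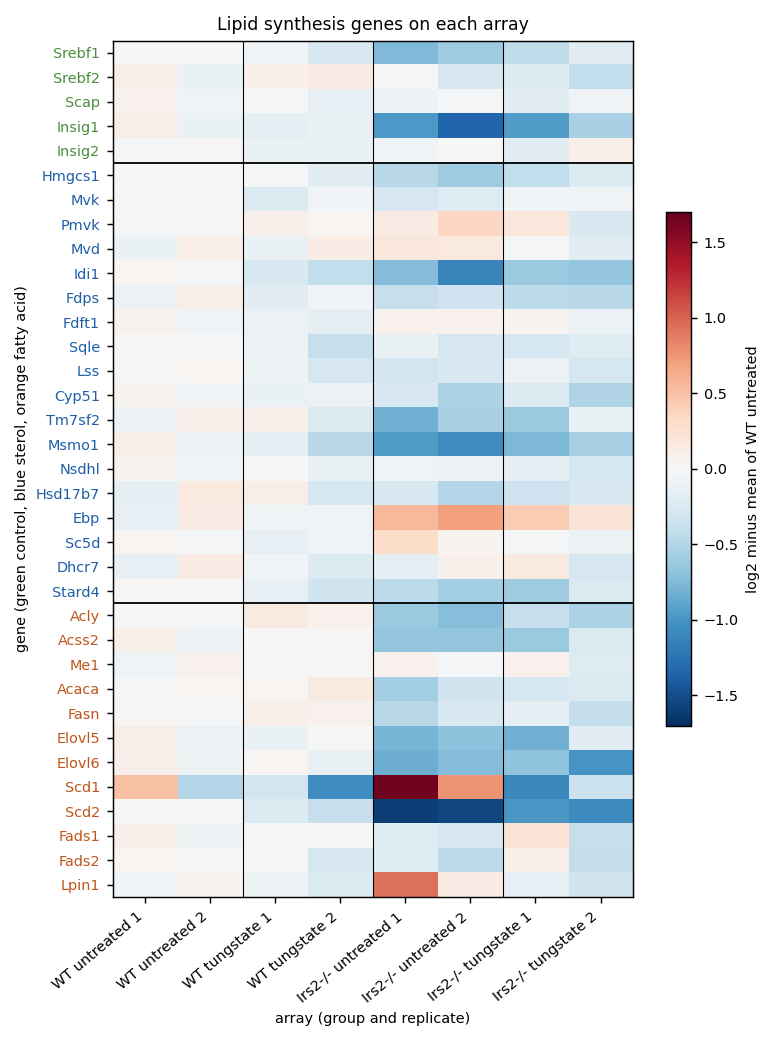
Heat map of 35 lipid synthesis genes (rows) on the 8 arrays (columns), as log2 expression minus the mean of the 2 untreated wild-type arrays; blue is lower and red higher. The 2 untreated Irs2-/- columns are the bluest, with Scd2, Insig1, Msmo1 and Idi1 darkest, and Scd1, Ebp and Lpin1 are red there.

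Among the 5 genes of SREBP control, 2 fell and 0 rose, against 8.52% and 8.27% of all tested genes. Insig1, which retains Scap in the endoplasmic reticulum and is itself a target of SREBP, read 10.69 and 10.47 in untreated and 10.41 and 10.46 in treated wild-type islets, against 9.60 and 9.23 in untreated and 9.63 and 10.03 in treated Irs2-/- islets. All 4 Irs2-/- arrays lay below all 4 wild-type arrays, and the 2 untreated Irs2-/- arrays were the lowest. The untreated difference was -1.17 ± 0.18, or 2.25-fold lower (limma adjusted p = 0.00743). Srebf1, the gene of SREBP-1, read 10.49 and 10.51, 10.46 and 10.23, 9.75 and 9.90 and 10.07 and 10.32 in the same order of groups. Its untreated Irs2-/- arrays were the lowest, while its treated Irs2-/- arrays overlapped the treated wild-type ones. It fell by 1.6-fold (-0.68 ± 0.14, limma adjusted p = 0.0175). The other 3 control genes did not pass: Srebf2 was -0.14 ± 0.14 (limma adjusted p = 0.53), Scap -0.06 ± 0.12 and Insig2, the relative of Insig1, -0.02 ± 0.12. Their untreated arrays overlapped between genotypes. A second Srebf2 probe set above the filter gave -0.42, so the size for Srebf2 depends on the probe set.

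In the mevalonate steps, which lead from acetyl-CoA to isoprenoids, 2 of 6 tested genes fell and 0 rose. Over all tested genes 8.52% fell and 8.27% rose. Idi1, the isomerase that provides dimethylallyl diphosphate, read 8.17 and 8.10 in untreated wild-type, 7.88 and 7.72 in treated wild-type, 7.41 and 7.02 in untreated Irs2-/- and 7.51 and 7.48 in treated Irs2-/- islets. No Irs2-/- array reached a wild-type one. The untreated difference was -0.93 ± 0.15 (1.9-fold lower, limma adjusted p = 0.00822). Hmgcs1, the cytosolic HMG-CoA synthase that stands before the step blocked by statins, read 9.91 and 9.90, 9.87 and 9.72, 9.44 and 9.30 and 9.49 and 9.67 in that order of groups. Again the genotypes did not overlap, though only narrowly so in treated mice. It fell by 1.45-fold (-0.54 ± 0.12, limma adjusted p = 0.0241). Fdps, which makes farnesyl diphosphate, read 9.38 and 9.59, 9.30 and 9.44, 9.09 and 9.13 and 9.03 and 9.02, without overlap between genotypes (-0.37 ± 0.12, limma adjusted p = 0.0665). The kinase and decarboxylase genes between did not share a sign: Mvk was -0.26 ± 0.11, Pmvk 0.25 ± 0.16 and Mvd 0.18 ± 0.14, and none of these passed (limma adjusted p = 0.16, 0.332 and 0.405).

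From squalene to cholesterol 1 of 11 genes was lower and 1 higher past the test, against 8.52% and 8.27% of all tested genes. Msmo1, the methylsterol monooxygenase that removes methyl groups after lanosterol, read 10.34 and 10.13 in untreated and 10.07 and 9.77 in treated wild-type islets and 9.27 and 9.16 in untreated and 9.47 and 9.67 in treated Irs2-/- islets. The genotypes were apart under both treatments. Msmo1 was 2.02-fold lower without Irs2 in untreated mice (-1.02 ± 0.15, limma adjusted p = 0.00616). Ebp, the sterol isomerase that shifts the ring double bond, went the other way and read 8.70 and 8.98, 8.77 and 8.78, 9.39 and 9.54 and 9.27 and 9.06. Each of its 4 Irs2-/- arrays was above each wild-type array, and the untreated difference was 0.63 ± 0.14 (limma adjusted p = 0.0227).

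Further genes of the sterol branch had estimates below 0 without passing in the chosen setting. Tm7sf2, a sterol reductase, read 7.86 and 8.03 in untreated wild-type, 8.03 and 7.70 in treated wild-type, 7.13 and 7.40 in untreated Irs2-/- and 7.32 and 7.81 in treated Irs2-/- islets (-0.68 ± 0.20, limma adjusted p = 0.0515). Stard4, which carries cholesterol between membranes, read 8.20 and 8.16, 8.04 and 7.84, 7.74 and 7.60 and 7.58 and 7.94 in that order (-0.51 ± 0.15, limma adjusted p = 0.052). Both passed under some of the alternative settings. Cyp51, the lanosterol demethylase, read 8.66 and 8.56, 8.50 and 8.52, 8.33 and 8.08 and 8.37 and 8.10 (-0.40 ± 0.14, limma adjusted p = 0.0874), and with the mean of its probe sets it passed (-0.61 ± 0.12, limma adjusted p = 0.0192). Hsd17b7, a sterol ketone reductase, read 6.07 and 6.40, 6.34 and 5.94, 5.97 and 5.74 and 5.88 and 5.98 (-0.39 ± 0.18, limma adjusted p = 0.17). None of these 4 overlapped between the untreated genotypes, while Tm7sf2, Stard4 and Hsd17b7 did between the treated ones. The remaining genes Fdft1, Sqle, Lss, Nsdhl, Sc5d and Dhcr7 lay between -0.28 and 0.18, with limma adjusted p from 0.16 to 0.931. For Sc5d the 2 other probe sets above the filter gave -0.33 each, opposite to the 0.18 of the one used, so its direction depends on the probe set. For Lss the 2 others gave -0.69 and -0.19 against -0.28 for the one used, so its size depends on the probe set.

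The fatty acid branch held 6 of 12 members that fell and 0 that rose, against 8.52% and 8.27% of all tested genes. At its entry stands Acly, ATP citrate lyase, which makes cytosolic acetyl-CoA from citrate. It read 12.77 and 12.79 in untreated wild-type, 12.92 and 12.84 in treated wild-type, 12.14 and 12.05 in untreated Irs2-/- and 12.38 and 12.24 in treated Irs2-/- islets. The genotypes stood clearly apart and tungstate arrays lay near their own genotype. Acly was 1.6-fold lower in untreated Irs2-/- islets (-0.68 ± 0.11, limma adjusted p = 0.00888). Acss2, which makes acetyl-CoA from acetate, read 8.36 and 8.15, 8.24 and 8.27, 7.59 and 7.58 and 7.62 and 8.01 (-0.67 ± 0.15, limma adjusted p = 0.0235). Treated Irs2-/- replicate 2 came closest to the wild-type range. Me1, the malic enzyme that supplies NADPH, was at 7.41 and 7.54 in untreated wild-type and 7.55 and 7.44 in untreated Irs2-/- islets (0.02 ± 0.13, limma adjusted p = 0.944), with overlapping arrays.

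Chain synthesis and elongation were lower in 3 of 4 genes, against 8.52% of all tested genes. Elovl6, which extends palmitate to stearate, read 8.82 and 8.65, 8.77 and 8.61, 7.90 and 8.00 and 8.06 and 7.74 in the order untreated and treated wild type, untreated and treated Irs2-/-. All 4 Irs2-/- arrays were well below all 4 wild-type arrays. The untreated difference was -0.78 ± 0.14 (1.72-fold lower, limma adjusted p = 0.0126). Elovl5, the elongase of polyunsaturated chains, read 11.64 and 11.44, 11.43 and 11.54, 10.76 and 10.84 and 10.72 and 11.35, so that treated Irs2-/- replicate 2 lay near the wild-type arrays and the other 3 Irs2-/- arrays well below. It fell in untreated islets by 1.67-fold (-0.74 ± 0.20, limma adjusted p = 0.0395). Acaca, acetyl-CoA carboxylase, which commits carbon to fatty acids, read 8.08 and 8.14, 8.14 and 8.27, 7.52 and 7.77 and 7.81 and 7.87 (-0.47 ± 0.12, limma adjusted p = 0.0396). The genotypes did not overlap, but the call was among the least steady and ended in 11 of 20 alternative settings. Fasn, the fatty acid synthase, read 9.15 and 9.12, 9.22 and 9.21, 8.66 and 8.88 and 8.96 and 8.73, with no overlap between genotypes (-0.36 ± 0.13 in untreated mice, limma adjusted p = 0.0911).

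Desaturases place double bonds into fatty acids, and the stearoyl-CoA desaturase genes Scd1 and Scd2 had estimates of opposite sign. Scd2 had the smallest p of all members. It read 10.99 and 10.98 in untreated wild-type, 10.75 and 10.59 in treated wild-type, 9.38 and 9.43 in untreated Irs2-/- and 9.99 and 9.91 in treated Irs2-/- islets. The groups did not overlap, and each genotype's treated arrays lay between its untreated arrays and the other genotype. Scd2 was 2.98-fold lower without Irs2 in untreated mice (-1.58 ± 0.11, limma adjusted p = 0.000677). Scd1 read 8.37 and 7.38, 7.56 and 6.82, 9.51 and 8.64 and 6.77 and 7.50 in the same order. It was highest in untreated Irs2-/- islets but its replicates lay far apart in all 4 groups (SD 0.52 to 0.70). The untreated difference did not pass (1.20 ± 0.44, limma adjusted p = 0.0972). Scd1 and Scd2 are close paralogs, and how far their probes hybridise to each other's RNA was not tested. The polyunsaturated desaturase genes Fads1 (-0.25 ± 0.19) and Fads2 (-0.33 ± 0.19) did not pass either (limma adjusted p = 0.416 and 0.255).

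Lpin1, a phosphatidate phosphatase on the way to triglycerides, read 8.72 and 8.81, 8.69 and 8.53, 9.70 and 8.91 and 8.62 and 8.42 in that same order. Replicate 1 of untreated Irs2-/- islets stood highest, and replicate 2 lay just above the wild-type arrays (0.54 ± 0.23, limma adjusted p = 0.149). Without replicate 2 the difference was 0.93 (limma adjusted p = 0.0157), with a lone Irs2-/- array taken to vary like the other groups. Lymphocyte markers (7 genes) were also highest on replicate 1, at 8.35 and 7.28 on the 2 untreated Irs2-/- arrays against 5.10 to 6.63 elsewhere. Adipocyte markers were 5.94 and 7.65 on these arrays, and the part of either marker list in the Scd1 and Lpin1 values was not tested. Leaving out untreated Irs2-/- replicate 2 and untreated wild-type replicate 1, which had the lowest acinar level, gave differences of 2.14 (log2) for Scd1 and 0.89 for Lpin1. Each is then the difference between 1 array and 1 array. That choice was made after the data were seen.

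**Figure D2:**
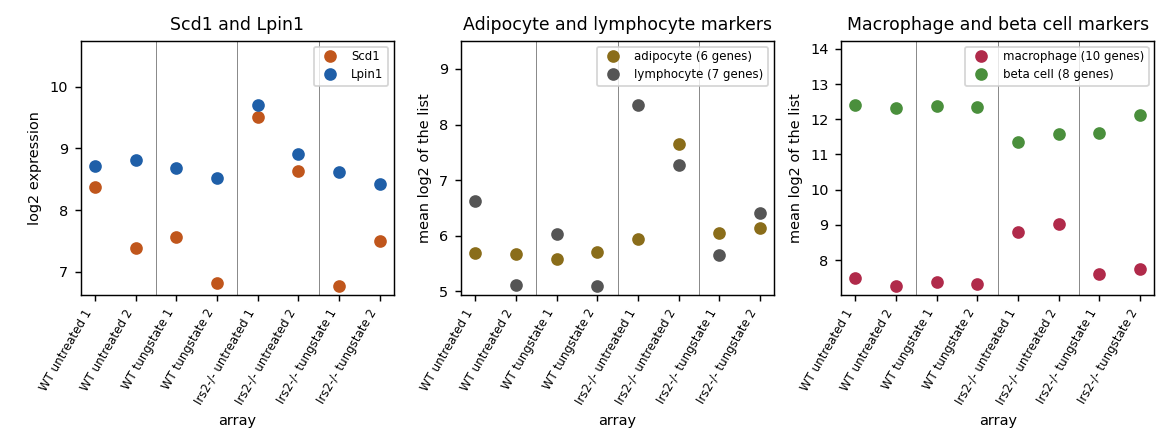
Log2 expression of Scd1 and Lpin1 (left) and mean log2 expression of marker lists of adipocytes and lymphocytes (middle) and of macrophages and beta cells (right) on each of the 8 arrays, 1 point per array. Scd1 and Lpin1 are highest on untreated Irs2-/- replicate 1, adipocyte markers on replicate 2 (7.65), and macrophage markers on both.

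The branches were set side by side. The median difference between untreated genotypes was -0.27 over 18 tested sterol branch genes and -0.42 over 12 fatty acid branch genes, against -0.01 over all tested genes. Called members numbered 3 lower and 1 higher of 18 in the sterol branch, and 6 lower and 0 higher of 12 in the fatty acid branch. Over all tested genes 8.52% were lower and 8.27% higher. Averaged over its genes, the sterol branch read 8.27 and 8.32 in untreated wild-type, 8.21 and 8.11 in treated wild-type, 8.07 and 8.03 in untreated Irs2-/- and 8.08 and 8.04 in treated Irs2-/- islets. The fatty acid branch read 9.12 and 8.99, 9.01 and 8.91, 8.77 and 8.65, and 8.65 and 8.60 in the same order. By these means all 4 Irs2-/- arrays lay below all 4 wild-type arrays in both branches. By the median over its genes the sterol branch overlapped, at 7.93 to 8.11 on Irs2-/- and 7.97 to 8.24 on wild-type arrays. With the macrophage marker level as a covariate the sterol median difference was -0.048 and the fatty acid one -0.56, against -0.19 over all tested genes in that fit. That level was 8.79 and 9.03 in untreated Irs2-/- islets, against 7.27 and 7.49 in untreated wild-type islets. The fit can hardly separate it from genotype, so these medians are imprecise and no conclusion is drawn from them. The difference between branches was not tested, because genes of a branch are not replicates.

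**Figure D3:**
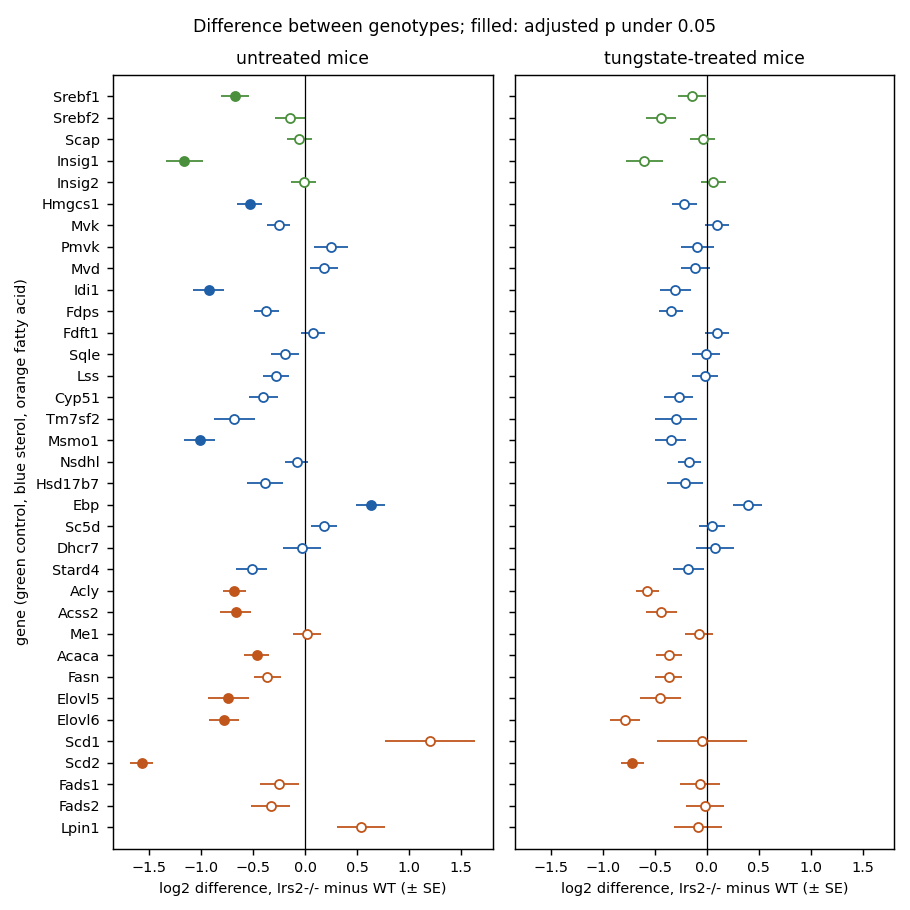
Log2 difference of Irs2-/- minus wild-type islets for 35 genes in untreated (left) and tungstate-treated mice (right), with bars of ± 1 SE; filled points passed limma's test at an adjusted p under 0.05. On the left 12 points are filled, 11 of them below 0, and on the right 1 is filled, Scd2.

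In tungstate-treated mice Scd2 was the member that passed between genotypes. Of 35 members 1 fell and 0 rose, against 1.02% of all tested genes in either direction. Scd2 was lower without Irs2 (-0.72 ± 0.11, 1.65-fold lower, limma adjusted p = 0.0352). Elovl6 (-0.79 ± 0.14, limma adjusted p = 0.0509) and Acly (-0.57 ± 0.11, limma adjusted p = 0.0599) were the next. The median was -0.14 in the sterol branch and -0.37 in the fatty acid branch, with -0.01 over all tested genes. All 12 fatty acid estimates were below 0, as were 7001 of 13369 over all tested genes. The sign did not hold in every setting: Me1, Scd1, Fads1, Fads2 and Lpin1 reached values above 0, up to 0.50 for Lpin1. In 15 of 35 members both treated Irs2-/- arrays read below both treated wild-type arrays, against 25.7% of all tested genes. Leaving out any of 6 arrays in turn ended the Scd2 call (the exceptions were untreated wild-type replicate 1 and treated Irs2-/- replicate 2), with its difference between -0.80 and -0.54 over all settings.

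No array is shared by the untreated and treated genotype comparisons, though all were normalized together. The 11 members that fell in untreated mice were all lower in treated mice, 10 of them without overlap, and Ebp was higher in both. Over all tested genes 97.5% of 1139 genes that fell were lower in treated mice and 85.7% did not overlap, so the members' shares were near this background. In 10 of the 11 the treated difference was the smaller one, as in 1091 of the 1139. Insig1 went from -1.17 ± 0.18 to -0.61 ± 0.18, Msmo1 from -1.02 ± 0.15 to -0.35 ± 0.15 and Srebf1 from -0.68 ± 0.14 to -0.14 ± 0.14. Elovl6 was -0.78 ± 0.14 and -0.79 ± 0.14, and Acly -0.68 ± 0.11 and -0.57 ± 0.11. Srebf2 was -0.14 ± 0.14 in untreated and -0.44 ± 0.14 in treated mice (limma adjusted p = 0.18 in the latter). Its second probe set gave -0.42 and -0.11, so which of the 2 differences was larger depends on the probe set.

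Tungstate itself moved no member past the test. In Irs2-/- islets 0 of 35 members passed limma's test, against 0.494% of all tested genes. An unadjusted p under 0.05 was found for 6 of 35 members and for 1780 of 13369 tested genes. The comparison shares its untreated Irs2-/- arrays with the untreated genotype comparison, so values are given side by side with no count of reversed signs. The Scd2 estimate for treated minus untreated Irs2-/- islets was 0.54 ± 0.11 (limma adjusted p = 0.102), from 9.38 and 9.43 to 9.99 and 9.91, without overlap and still below the wild-type arrays. Scd1 was -1.94 ± 0.44 (limma adjusted p = 0.119), the largest estimate among the members, from 9.51 and 8.64 to 6.77 and 7.50. Lpin1 was -0.78 ± 0.23 (limma adjusted p = 0.211), Insig1 0.42 ± 0.18, Srebf1 0.37 ± 0.14 and Msmo1 0.35 ± 0.15 (limma adjusted p = 0.366, 0.306 and 0.363). Elovl6 stayed within its SE of 0, at -0.05 ± 0.14. The median was -0.0055 in the sterol branch, 0.18 in the fatty acid branch and -0.01 over all tested genes.

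Whether Lpin1 and Scd1 passed in this comparison changed when arrays were left out, including for Scd1 a wild-type array not compared here. Without untreated Irs2-/- replicate 2, Lpin1 was lower by tungstate (-1.18 ± 0.16, limma adjusted p = 0.0235). Without that array and untreated wild-type replicate 1, a choice made after the data were seen, Lpin1 (-1.18 ± 0.17, limma adjusted p = 0.0214) and Scd1 (-2.38 ± 0.39, limma adjusted p = 0.0326) both passed. The untreated Irs2-/- group then rests on 1 array, which is taken to vary like the other groups. Macrophage markers fell in 6 of 10 genes with tungstate in Irs2-/- islets, a median of -1.22, and their part in these values was not tested.

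**Figure D4:**
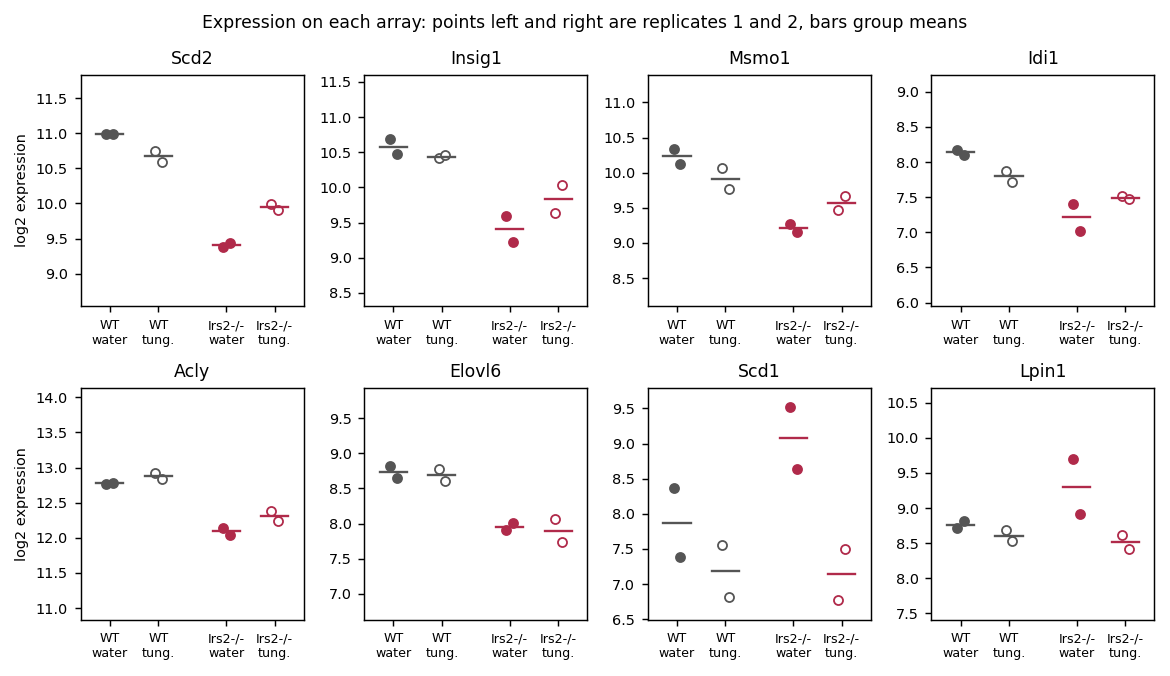
Log2 expression of 8 genes on each array, by group (wild type in grey, Irs2-/- in red; filled for plain water, open for tungstate, labelled tung.), with bars at group means; every panel spans 3.3 log2 units. Scd2 falls from 10.99 and 10.98 to 9.38 and 9.43 without Irs2 and reads 9.99 and 9.91 with tungstate, while Scd1 and Lpin1 are highest in untreated Irs2-/- islets.

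In wild-type islets tungstate passed limma's test for 0 of 35 members and 0% of all tested genes (0 of 13369, of which 364 had an unadjusted p under 0.05). Of the members 2 had an unadjusted p under 0.05. The median was -0.11 in the sterol branch and -0.03 in the fatty acid branch, against -0.03 over all tested genes. All 11 genes from squalene to cholesterol had estimates below 0, from -0.32 for Msmo1 to -0.06 for Ebp, where 7699 of 13369 tested genes did. The shared sign did not hold in every setting: with quantile normalization Ebp was 0.0033. Over all settings Tm7sf2 reached 0.088, Hsd17b7 0.10, Ebp 0.080, Fdft1 0.042 and Dhcr7 0.0001. Idi1 (-0.34 ± 0.15) and Scd2 (-0.32 ± 0.11) had the treated arrays below the untreated ones, as did Msmo1 (-0.32 ± 0.15), with limma adjusted p = 1 for each. A p of this size does not show that the groups act alike.

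The difference between the tungstate effects in the 2 genotypes (interaction) passed limma's test for 0 of 35 members and for 0.0224% of all tested genes. An unadjusted p under 0.05 was found for 4 of 35 members and for 862 of 13369 tested genes. Scd2 had the smallest p, with an estimate of 0.86 ± 0.16 (limma adjusted p = 0.315), followed by Msmo1 at 0.67 ± 0.21 and Idi1 at 0.62 ± 0.21 (limma adjusted p = 0.683 and 0.695). A smaller difference between treated than between untreated genotypes was therefore not shown for any single member.

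Treated Irs2-/- islets were also set against untreated wild-type islets. Of 35 members 1 fell and 0 rose, against 0.352% of all tested genes. Scd2 was 2.05-fold lower (-1.03 ± 0.11, limma adjusted p = 0.021), and Elovl6 was -0.84 ± 0.14 (limma adjusted p = 0.061), Insig1 -0.75 ± 0.18 (limma adjusted p = 0.0988) and Acly -0.47 ± 0.11 (limma adjusted p = 0.0983). The estimate was below 0 for 34 of 35 members, Ebp being the exception, and for 7262 of 13369 tested genes. The members' sign did not hold in every setting. With quantile normalization Mvk, Pmvk, Fdft1, Sc5d, Me1, Fads1 and Insig2 were also above 0, at 0.028 to 0.073. The Scd2 call ended without either untreated wild-type array, either treated wild-type array or treated Irs2-/- replicate 1 (difference between -1.09 and -0.72 over all settings).

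Other genes of these pathways were taken from a list of known members. Of 20 other genes of sterol synthesis, uptake and export, 12 were tested between untreated genotypes and 1 rose, against 8.27% of all tested genes. This was Mylip, a ubiquitin ligase that marks the LDL receptor for degradation, at 8.19 and 8.12 in untreated wild-type and 8.73 and 8.68 in untreated Irs2-/- islets (0.55 ± 0.13, limma adjusted p = 0.0269). It was higher in treated mice too, at 7.51 and 7.75 in wild-type and 8.50 and 8.31 in Irs2-/- islets (0.78 ± 0.13, limma adjusted p = 0.0416).

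Of 28 other genes of fatty acid synthesis, activation and esterification, 26 were tested, and 4 fell and 2 rose between untreated genotypes, against 8.52% and 8.27% of all tested genes. Elovl2, an elongase of very long polyunsaturated chains, read 7.52 and 7.48 in untreated wild-type, 7.49 and 7.36 in treated wild-type, 6.65 and 6.67 in untreated Irs2-/- and 6.68 and 6.58 in treated Irs2-/- islets. It passed in untreated (-0.84 ± 0.11, limma adjusted p = 0.00399) and treated mice (-0.80 ± 0.11, limma adjusted p = 0.0265). Mlxipl, the glucose-responsive factor ChREBP, which drives lipogenic genes, read 11.05 and 10.96, 11.21 and 10.98, 9.96 and 10.47 and 10.76 and 10.79 in that order (-0.79 ± 0.18, limma adjusted p = 0.0228 in untreated mice). The acyl-CoA synthetase genes Acsl3 (-0.71 ± 0.14) and Acsl4 (-0.39 ± 0.11) fell, and Elovl1 (0.59 ± 0.15) and the lipin gene Lpin2 (0.85 ± 0.16) rose (limma adjusted p = 0.0142, 0.0415, 0.0329 and 0.0141). The medians of the 2 lists were -0.04 and 0.10.

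Other probe sets gave a further reading of the same RNA. The 12 members that passed between untreated genotypes had 12 further probe sets above the filter, in 7 genes, and all 12 had the sign of the one used. For the other members 18 of 22 did, the exceptions being in Fdft1, Insig2 and Sc5d.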

How the data were processed

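Islet RNA was measured on 8 arrays. Per the labels' protocols, RNeasy-purified total RNA was turned into biotinylated cRNA. Per the submitters' processing notes signals were summarised with RMA (affy package, R 2.7.0), so each deposited value is the log2 expression of a probe set. No scan date or batch was used here.

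A single gene is named by 34945 of the 45037 non-control probe sets. Genes whose brightest probe set averaged under the 40th percentile (log2 5.27) were not tested, which left 13369 of 18193. Group means were fitted with limma 3.58.1 (R 4.3.3) on 4 residual and 3.89 prior degrees of freedom, with 6 contrasts. The precision is limited by 2 arrays per group. The workflow was tested on simulated data for the untreated genotype contrast (13369 genes, 200 of them changed by 1 on the log2 scale): 70.9% were found and 4.32% of calls were false. Members and lists were chosen with earlier results of these data known. Values on every array are given for members that passed in any contrast and for the 8 others with the largest untreated genotype difference, and Mylip, Elovl2 and Mlxipl are examples of the called pathway genes. Alternatives are in the closing section, and the limits there include the replicate number as a block.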

Additional observations from a re-analysis of the deposited data

How the results depend on the processing

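There were 20 alternative settings besides the main one, 1 of them (leaving out 2 arrays with outlying marker levels) chosen after seeing the data, and a threshold of 0.1 for counts. The interaction uses all arrays, so a fit on only the arrays compared was not run for it. The 12 members that passed between untreated genotypes kept their sign in all 20, and 176 of 240 such results kept the call. Their sizes varied: Idi1 ranged from -1.165 to -0.033, Acly from -0.78 to -0.19, Elovl5 from -2.395 to -0.64 and Scd2 from -1.68 to -1.17. Their number of 12 was 7 with the acinar covariate, 0 with the macrophage covariate, 3 without the 2 outlying arrays, and 5 to 14 without single arrays. Between treated genotypes the number of 1 was 3 with the 60th percentile filter, 3 with a variance trend, 3 with quantile normalization and 3 at an adjusted p under 0.1. It was 2 with the replicate block and with array weights, 0 with the mean of probe sets, the macrophage covariate, only the arrays compared or without the 2 outlying arrays, and 0 to 2 without single arrays. For treated Irs2-/- against untreated wild type the number of 1 was 2 with the trend, 6 at 0.1, 0 with the mean of probe sets, the macrophage covariate, only the arrays compared or without the 2 outlying arrays, and 0 to 3 without single arrays. For tungstate in Irs2-/- islets it was 2 without the outlying arrays and 0 to 1 without single arrays. The sterol median was -0.18 between untreated genotypes with the mean of probe sets, -0.17 for treated Irs2-/- against untreated wild type with quantile normalization, and -0.19 for tungstate in wild type without the outlying arrays. With the macrophage covariate it was -0.048 and -0.027 between untreated and treated genotypes (all tested genes -0.19 and -0.048), -0.27 for tungstate in Irs2-/- islets (all 0.12) and -0.074, turned in sign, for the interaction (all 0.14). The fatty acid median was then -0.56 between untreated genotypes and 0.017 for tungstate in Irs2-/- islets. The macrophage level sets the untreated Irs2-/- arrays apart from all others, so this covariate can hardly be separated from that group. Without single arrays the sterol median ranged from -0.19 to -0.070 (treated genotypes), from -0.19 to -0.092 (tungstate in wild type) and from 0.064 to 0.24 (interaction), and the fatty acid median from -0.058 to 0.18 (tungstate in Irs2-/-) and from -0.042 to 0.12 (interaction), turning in sign without treated Irs2-/- replicate 1. The causes were not tested. Deviations of same-numbered replicates correlated between -0.066 and 0.42 over pairs of groups, with 0.42 for the untreated groups. These values and the labels do not settle whether the numbers pair the samples, and 2 samples a group leave this check weak. The replicate block left 12 calls between untreated genotypes and changed no other number of calls than the one given.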
